A study of Bos taurus with 2 samples.

Results

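The 9 genes described here, SOX9, SOX5, SOX6, ACAN, MATN1, MATN3, COMP, IHH and PTH1R, are known for their roles in cartilage and were taken by name, by a rule that holds no measured value, with earlier results of these data known. They are 9 of the 21162 protein-coding genes on chromosomes 1 to 29 and X, and all 9 were found in the gene table. CpG methylation was measured by whole-genome bisulfite sequencing (WGBS) in 2 samples of bone from cattle (Bos taurus), named bone 1 and bone 2 here, both labelled as female and Holstein. The samples form a single group with no treatment and no control tissue, and neither the labels nor the methods of the study give an age or say whether 1 or 2 animals were sampled. Each SD given here is therefore the spread between these samples.

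Cartilage is built by chondrocytes, which surround themselves with a matrix of type II collagen, aggrecan and smaller linking proteins. The transcription factors SOX9, SOX5 and SOX6 act together to turn on the genes of that matrix. In the growth plate of long bones, signalling by Indian hedgehog and by parathyroid hormone-related protein through its receptor sets the pace at which chondrocytes mature before bone replaces them. Methylation of CpG sites is usually low where a CpG-dense promoter lies and high through the rest of a gene. Because a bone sample holds several cell types, a change in the share of cells and a change in the level per cell cannot be told apart.

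Bone 1 held 462047525 methylation calls on chromosomes 1 to 29 and X and bone 2 held 406703424, or 17.03 and 14.99 calls per CpG site on average, a call being 1 read of 1 cytosine. Over those chromosomes, 72.3% and 58.7% of calls were methylated, which corresponds to a ratio of 1.84 between the odds of a methylated call in bone 1 and in bone 2. Each region was therefore tested by a two-sided exact test against an odds ratio of 1 (Fisher's exact test) and against the genome-wide odds ratio, with Benjamini-Hochberg adjustment over all genes or windows and a threshold of 0.05. Such p-values compare 2 libraries and not conditions, and calls on the same read are not independent, so they take no account of the spread between animals. The brackets after a level give its 95% Wilson interval, which covers counting error only.

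The start region of a gene (promoter) ran from 1000 bp before to 500 bp after its start. It was under 20% methylated in both samples for 6 of the 9 genes (66.7%), namely SOX9, SOX5, SOX6, ACAN, COMP and IHH, against 51.1% of the 20921 promoters tested. The median over the 9 genes was 4.96% in bone 1 and 11.5% in bone 2, beside 12.8% and 17.1% over all promoters. The 9 promoters were also denser, with a median of 85 CpG sites beside 69 over all promoters. The part of CpG density in these values was not tested. MATN1 and PTH1R stood apart with levels over 60% in each sample, and MATN3 lay close to the limit of 20%. These 3 genes and the others are plotted by sample, and there the 2 samples lie close together at the low promoters and apart at the methylated ones.

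**Figure D1:**
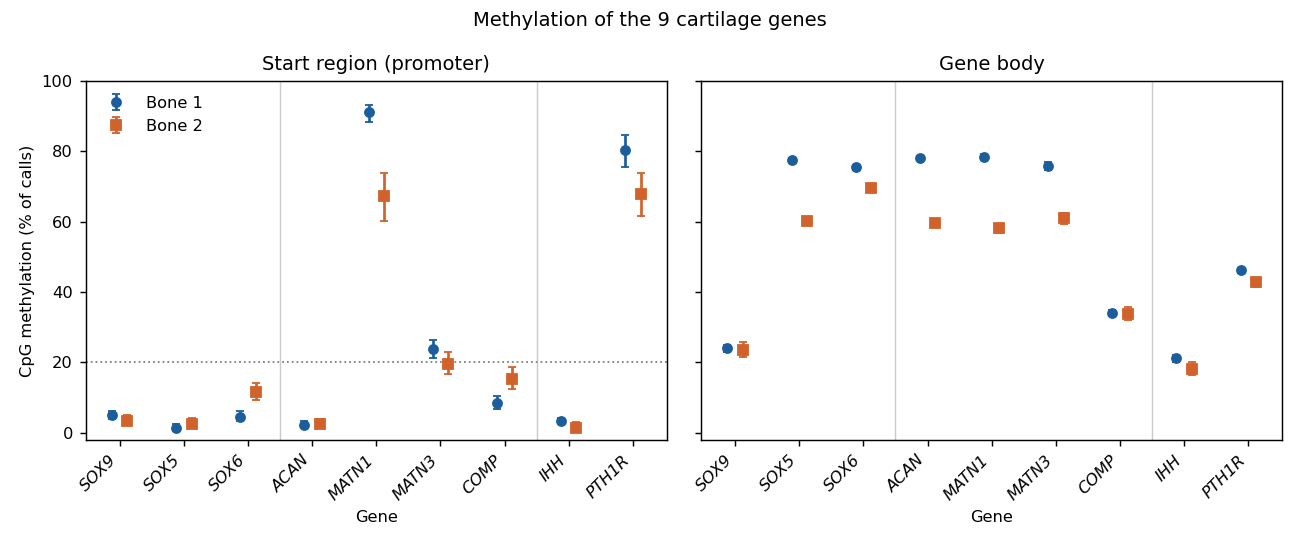
Methylation level (percent of calls, vertical axis) of the start region (left) and the gene body (right) of the 9 cartilage genes in bone 1 (circles) and bone 2 (squares), with 95% Wilson intervals. The dotted line marks 20%, under which 6 start regions lay in both samples, whereas the start regions of MATN1 and PTH1R lay over 60%.

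SOX9, the factor without which cartilage does not form, lies on chromosome 19 and is 4.1 kb long. Of the calls in its promoter, 4.96% (3.94 to 6.24%) of 1390 were methylated in bone 1 and 3.40% (2.33 to 4.93%) of 765 in bone 2, or 4.18% ± 1.11 (SD, n = 2). The difference did not pass the threshold (adjusted p = 0.141, Fisher's exact test). When the region was extended to 2000 bp before the start, the level was 3.13 percentage points higher in bone 2 (adjusted p = 0.00753, Fisher's exact test). The added 1 kb was at 23.5% of 281 calls in bone 1 and 27.1% of 377 calls in bone 2. It took a larger share of the calls in bone 2, and the part of depth in the turn was not tested. The 120 CpG sites of this promoter placed it in the densest class of promoters, those with 100 or more sites, 88.1% of which were under 20% in both samples.

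SOX5, a partner of SOX9 that lacks an activation domain of its own, is 1174.6 kb long and lies on chromosome 5. Its promoter, with 105 CpG sites, was at 1.29% (0.657 to 2.53%) of 618 calls in bone 1 and 2.62% (1.57 to 4.35%) of 534 calls in bone 2. The difference of 1.33 percentage points did not pass against an odds ratio of 1 (adjusted p = 0.179, exact test). Against the genome-wide odds ratio it passed, with an odds ratio of 0.487 (adjusted p = 0.00494, exact test). That call was lost when the region was shortened to 500 bp before the start (-0.165 percentage points, adjusted p = 0.547, exact test). It was also lost with sites of at least 5 calls in each sample, 29 of the 105 (-0.521 percentage points, adjusted p = 1, exact test). The sign of the difference turned in both. With 2000 bp before the start the difference passed against an odds ratio of 1 as well (adjusted p = 0.0432, exact test).

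SOX6, the closest relative of SOX5, is 833.3 kb long and lies on chromosome 15, and the whole of its start region also belongs to the neighbouring gene C15H11orf58. Its promoter had only 32 CpG sites and yet was at 4.51% (3.32 to 6.11%) of 864 calls in bone 1 and 11.5% (9.34 to 14.1%) of 705 calls in bone 2. Just 15.2% of promoters with 30 to 59 CpG sites had a lower mean level, and the median of that class was 39.5%. The difference of 6.98 percentage points passed the exact test (adjusted p = 9.56e-07), but it depended on where the calls lay. From 1000 to 750 bp before the start, 58.97% of 39 calls were methylated in bone 1 and 44.2% of 113 calls in bone 2. From 750 to 500 bp before it, 50% of 14 calls and 27.4% of 84 calls were methylated. In the 4 bins of 250 bp nearest the start, by contrast, no level was above 3.57% in either sample. Bone 2 thus had the lower level in both outer bins and took more of its calls from them. With each bin weighted by its CpG sites instead, the level was 14.7% in bone 1 and 10.9% in bone 2, the opposite direction, as was the unweighted mean over sites with at least 5 calls (13.4% and 10.1%). With 500 bp before the start the difference did not pass (adjusted p = 0.651, exact test). It did not pass against the genome-wide odds ratio there either (adjusted p = 0.122, exact test).

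**Figure D2:**
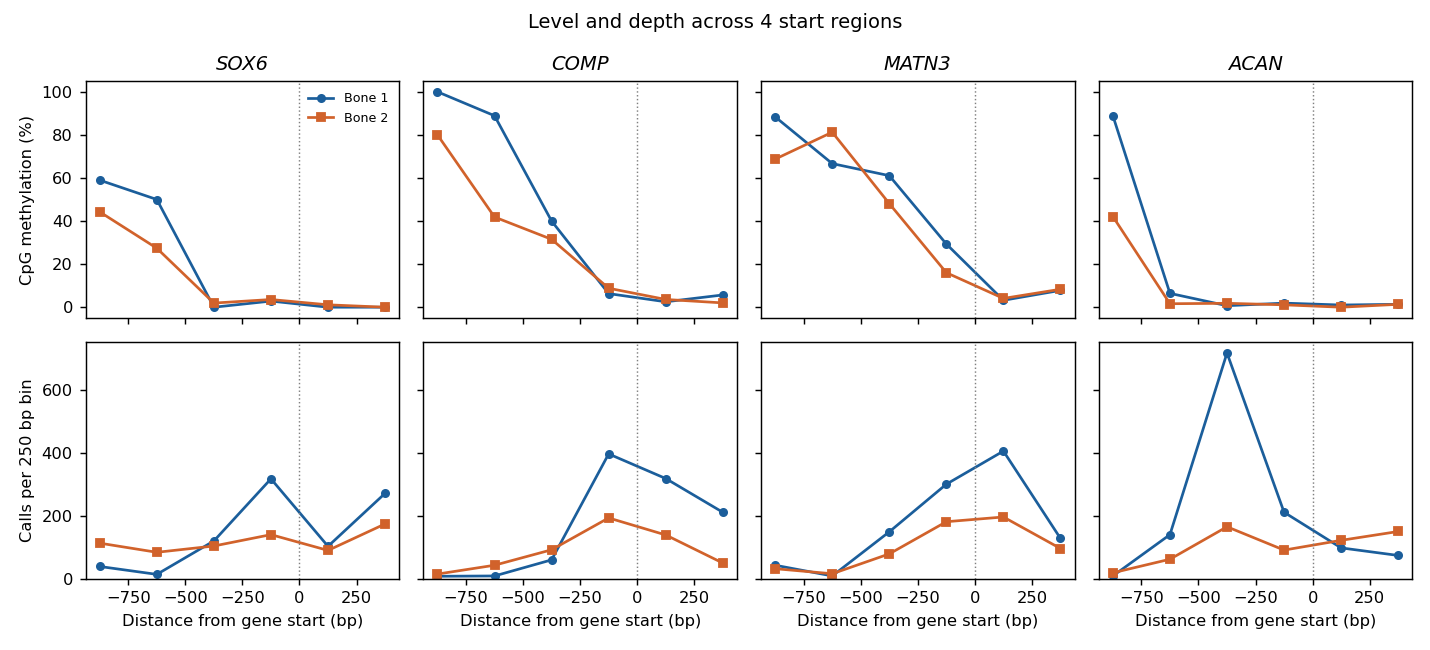
Methylation level (percent of calls, upper panels) and number of calls (lower panels) in bins of 250 bp against distance from the gene start (bp) for SOX6, COMP, MATN3 and ACAN, with bone 1 as circles and bone 2 as squares. Levels were high in the outermost bin of each gene and under 10% in both bins after the start, and in SOX6 bone 2 held more calls in the outer bins (113 against 39 in the outermost).

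ACAN encodes aggrecan, the large proteoglycan that gives cartilage its resistance to compression, and is 69.4 kb long on chromosome 21. A long non-coding RNA gene shares 1086 bp of its start region. The promoter held 135 CpG sites and was at 2.24% (1.56 to 3.22%) of 1248 calls in bone 1 and 2.46% (1.498 to 4.02%) of 609 calls in bone 2. These levels were within each other's intervals (adjusted p = 0.810, Fisher's exact test), and a call against the genome-wide odds ratio was made only with 2000 bp before the start (adjusted p = 9.24e-09, exact test). Past the outermost 250 bp, where 2 sites were at 88.9% and 42.1%, no bin was above 6.43%, as the plot of 250 bp bins shows.

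MATN1 and MATN3 encode matrilins, proteins that form filaments between collagen fibrils and proteoglycans of cartilage. Their promoter levels were far apart. MATN1, 32.6 kb long on chromosome 2, had 22 CpG sites in its start region, and that region lies wholly within the neighbouring gene LAPTM5. Its level was 91.1% (88.2 to 93.3%) of 483 calls in bone 1 and 67.4% (60.1 to 74.0%) of 172 calls in bone 2, or 79.3% ± 16.7 (SD, n = 2). This difference of -23.7 percentage points was past the threshold against both odds ratios (adjusted p = 1.72e-11 and 4.58e-05, exact tests). When the other end of the gene, which has 24 CpG sites, was taken as the start (31.7% and 30.3%), the call against an odds ratio of 1 was lost (adjusted p = 0.869, exact test). Against the genome-wide ratio the region then passed in the opposite direction (adjusted p = 0.0384, exact test).

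MATN3, 19.1 kb long on chromosome 11, had 85 CpG sites in its start region and a level of 23.8% (21.3 to 26.5%) of 1034 calls in bone 1 and 19.7% (16.7 to 23.0%) of 600 calls in bone 2. Among promoters with 60 to 99 CpG sites, 81.5% had a lower mean level. The intermediate value was an average over a steep slope. From 500 to 250 bp before the start, 61.1% and 48.1% of calls were methylated. In the next bin the levels were 29.3% and 16.0%. In the first 250 bp of the gene they were 3.21% and 4.08%. The difference of -4.12 percentage points over the whole region did not pass against an odds ratio of 1 (adjusted p = 0.0837, exact test), and it did against the genome-wide odds ratio (adjusted p = 0.00870, exact test), the samples being closer together than that ratio implies. Both calls turned over with 500 bp before the start (adjusted p = 0.0207 and 0.239, exact tests) and with sites of at least 5 calls (adjusted p = 0.0317 and 0.0582, exact tests).

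COMP encodes a pentameric matrix protein of cartilage and tendon, and is 7.8 kb long on chromosome 7. Its promoter, with 83 CpG sites, was at 8.48% (6.91 to 10.4%) of 1002 calls in bone 1 and 15.4% (12.6 to 18.7%) of 532 calls in bone 2, a difference of 6.93 percentage points (adjusted p = 0.000119, exact test). As in SOX6, the outer bins were lower in bone 2 but took a larger share of its calls. From 750 to 500 bp before the start, for example, 88.9% of 9 calls and 41.9% of 43 calls were methylated. With bins weighted by CpG sites the level was 13.4% in bone 1 and 10.2% in bone 2, again the opposite direction, although the outermost bins rest on 8 and 9 calls in bone 1. The unweighted mean over sites with at least 5 calls was 8.30% and 9.23%, in the direction of the summed calls. The difference passed with 500 bp before the start (adjusted p = 0.0295, exact test) and not with 2000 bp (adjusted p = 0.555, exact test).

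IHH encodes Indian hedgehog, a signal secreted by maturing chondrocytes, and is 5.9 kb long on chromosome 2. It had the most CpG sites of the 9 promoters, 171, and levels of 3.40% (2.78 to 4.15%) of 2736 calls in bone 1 and 1.496% (0.726 to 3.05%) of 468 calls in bone 2. Depth there was uneven, at 16.0 and 2.74 calls per site, and 15 of the sites had no call in bone 2. The difference of -1.90 percentage points passed the threshold narrowly (adjusted p = 0.0469, exact test). It did not pass with 500 bp before the start (adjusted p = 0.274, exact test) or with sites of at least 5 calls in each sample (0.211 percentage points, adjusted p = 1, exact test), and with 2000 bp before the start it was 2.48 percentage points in the other direction (adjusted p = 0.00680, exact test).

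PTH1R encodes the receptor that receives parathyroid hormone and its related protein, and is 25.4 kb long on chromosome 22. Its start region had 23 CpG sites and was at 80.4% (75.5 to 84.5%) of 296 calls in bone 1 and 68.02% (61.6 to 73.8%) of 222 calls in bone 2, or 74.2% ± 8.76 (SD, n = 2). Methylation was lower in bone 2 by an amount that passed against an odds ratio of 1 (adjusted p = 0.00285, exact test) but not against the genome-wide one (adjusted p = 0.887, exact test). The first call was lost with 500 bp before the start (adjusted p = 0.308, exact test). Of promoters with under 30 CpG sites, 1.40% were under 20% in both samples. The methylated start regions of MATN1 and PTH1R belonged to that class. Whether transcription begins in either region was not tested, since the gene table gives no transcripts. All of the MATN1 region lies within LAPTM5. In PTH1R, a block of 192 CpG sites from 2.67 to 4.67 kb after the start was at 1.28% and 1.19%.

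Counted together, 5 of the 9 promoters differed between the samples against an odds ratio of 1 (SOX6, MATN1, COMP, IHH and PTH1R), where 63.8% of all promoters did. MATN1, IHH and PTH1R were the lower in bone 2, as were 57.9% of all promoters that differed, and SOX6 and COMP were the higher by summed calls. Against the genome-wide odds ratio 5 promoters differed (SOX5, SOX6, MATN1, MATN3 and COMP), where 60.8% of all promoters did. Only MATN1 among these had an odds ratio above the genome-wide one, beside 3080 of the 12711 promoters called in all. In the plot of all promoters, the cartilage genes fall within the cloud of the other genes.

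**Figure D3:**
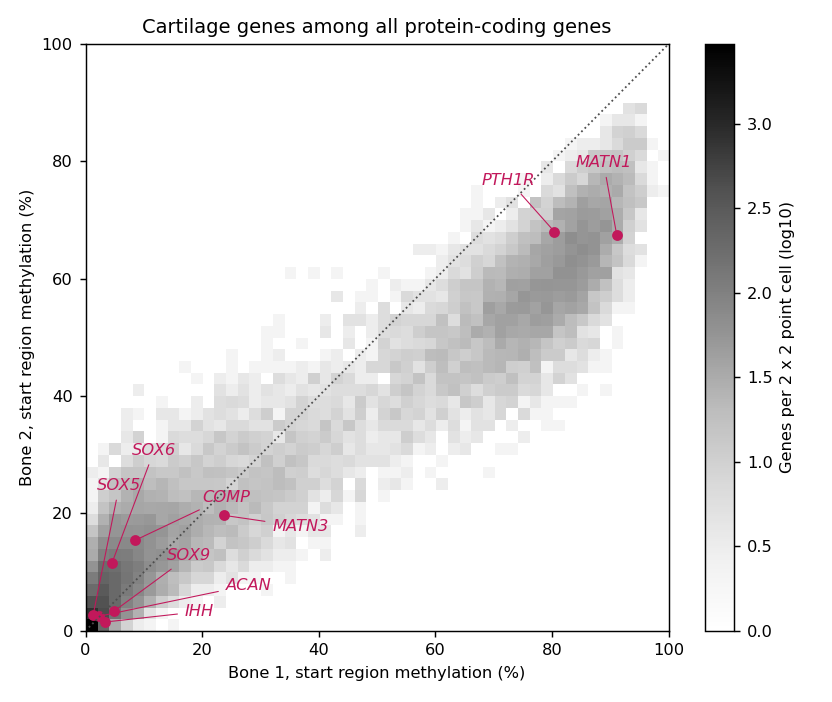
Start region methylation (percent) of all tested protein-coding genes in bone 1 (horizontal axis) and bone 2 (vertical axis), shaded by the number of genes per cell on a log10 scale, with the 9 cartilage genes as labelled points and equality as a dotted line. PTH1R (80.4% and 68.02%) and MATN1 (91.1% and 67.4%) lie among the methylated promoters below the line, and the other 7 lie towards the lower left corner, at or under 23.8% in both samples.

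Around the gene starts, 1 kb windows were counted to 10 kb on either side, 180 in all, of which 173 had at least 20 calls in each sample. Under 20% in both samples were 25 of these (14.5%), beside 8.86% of the windows around all gene starts, and CpG density was not matched. SOX9 had 6 such windows and IHH 5, SOX5 had 4, and MATN1 and MATN3 had 1 each. SOX6, ACAN, COMP and PTH1R had 2 each. Between the samples 117 windows differed against an odds ratio of 1, 111 of them (94.9%) lower in bone 2, where 66.8% of all windows differed and 94.4% of those were lower in bone 2. Against the genome-wide odds ratio 56 differed, where 29.8% of all windows did. In 38 of them (67.9%) the odds ratio was above the genome-wide one, beside 66.6% of all such windows. In the other 18 it was below, and 17 of these were higher in bone 2, beside 32527 of 38116 around all gene starts. The median window was at 78.7% in bone 1 and 57.8% in bone 2, beside 79.4% and 60.6% around all gene starts.

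**Figure D4:**
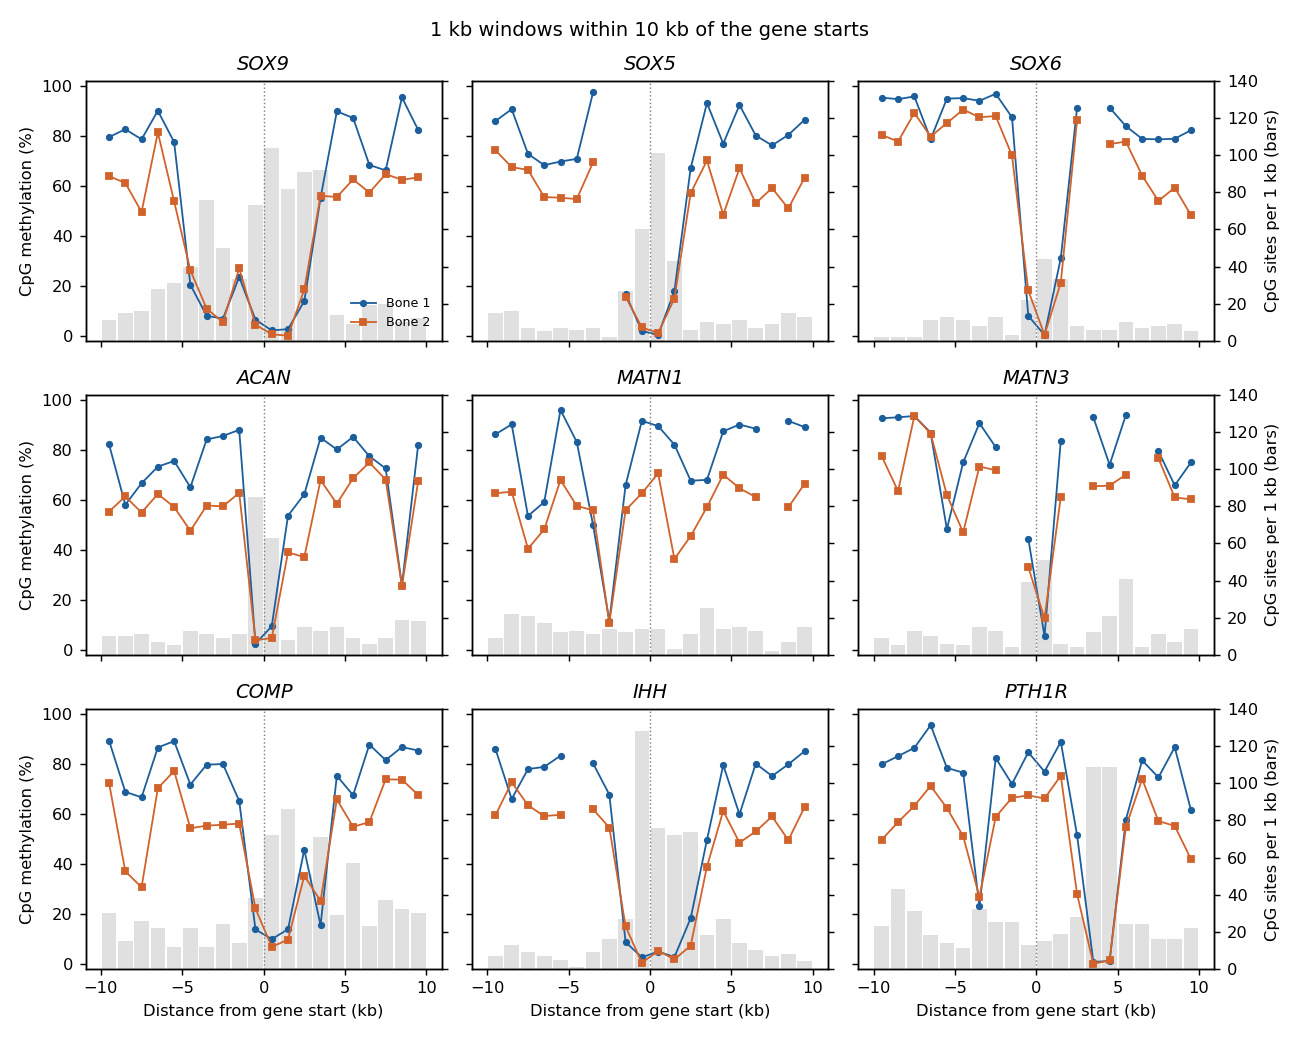
Methylation level (percent, left axes) of 1 kb windows against distance from the start of each cartilage gene (kb), with bone 1 as circles, bone 2 as squares and the number of CpG sites per window as grey bars (right axes). Both samples dip at the start in 7 panels, whereas MATN1 dips before the start and PTH1R inside the gene.

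The low windows were not spread evenly, and where neighbouring ones are joined on the coordinates of the deposited counts (ARS-UCD1.2 per the submitters' processing notes) each gene had its own arrangement. At SOX9 they formed 2 blocks. The first, chr19:58920001-58924000, spanned the start with 363 CpG sites at 7.63% and 4.99%. The second, chr19:58925001-58927000, lay before the start, from -3.93 to -1.93 kb, with 123 sites at 7.49% and 7.46%. Between the blocks lay a single window that was not under 20% in both samples.

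At IHH, 4 windows in a row (chr2:107004001-107008000) with 358 CpG sites were at 6.23% in bone 1 and 3.86% in bone 2, reaching from -1.08 to 2.92 kb relative to the start. SOX5 had a block of 3 windows at its start (chr5:85455001-85458000, 215 sites) at 2.17% and 3.23%. ACAN had a single window there (chr21:20377001-20378000, 119 sites) at 1.60% and 1.03%. At COMP a block of 2 windows (chr7:4422001-4424000, 122 sites) was at 9.62% and 10.7%, and at MATN3 1 window (chr11:78823001-78824000, 81 sites) was at 18.9% and 11.98%. In these genes the low block thus covered the gene start in both samples.

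PTH1R and MATN1, the genes with methylated start regions, parted from each other here. Inside PTH1R, 2.67 to 4.67 kb after its start, 2 windows (chr22:52619001-52621000) with 192 CpG sites were at 1.28% (0.940 to 1.75%) of 3041 calls in bone 1 and 1.19% (0.650 to 2.19%) of 837 calls in bone 2. A further block lay 13.7 to 15.7 kb after the start (chr22:52608001-52610000, 83 sites) at 3.39% and 6.13%. Whether a transcript of PTH1R begins at either block was not tested, since the gene table gives no transcripts. Inside MATN1, none of the 32 tested windows was under 20% in both samples, and the lowest levels were 50.5% and 43.3%. Its only low window within 10 kb of the start (chr2:122829001-122830000, 15 sites) lay before the start, from -3.21 to -2.21 kb, at 11.98% and 10.1%. Windows with almost no methylation were therefore seen within PTH1R and not within MATN1.

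SOX6 had low blocks far from its start as well. The block at the start (chr15:35715001-35717000, 79 sites) was at 1.48% and 4.45%. Some 112 to 114 kb into the gene, 2 windows (chr15:35827001-35829000, 85 sites) were at 3.65% and 8.56%, and from 118 to 123 kb another 5 (chr15:35833001-35838000) with 258 sites were at 4.05% (3.53 to 4.64%) and 2.28% (1.74 to 3.00%). The block from 118 to 123 kb held more CpG sites than the start of the gene. A window about 484 kb into the gene with 16 sites was at 5.17% and 12.6%. In SOX5, 2 such inner windows were seen. The one about 703 kb from its start (chr5:86160001-86161000, 24 sites) was at 2.03% and 3.31%, and the other, about 101 kb from the start with 8 sites, was near the limit at 17.9% and 17.3%. The plot along 3 genes shows the islands of SOX6 as dips in an otherwise methylated body.

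**Figure D5:**
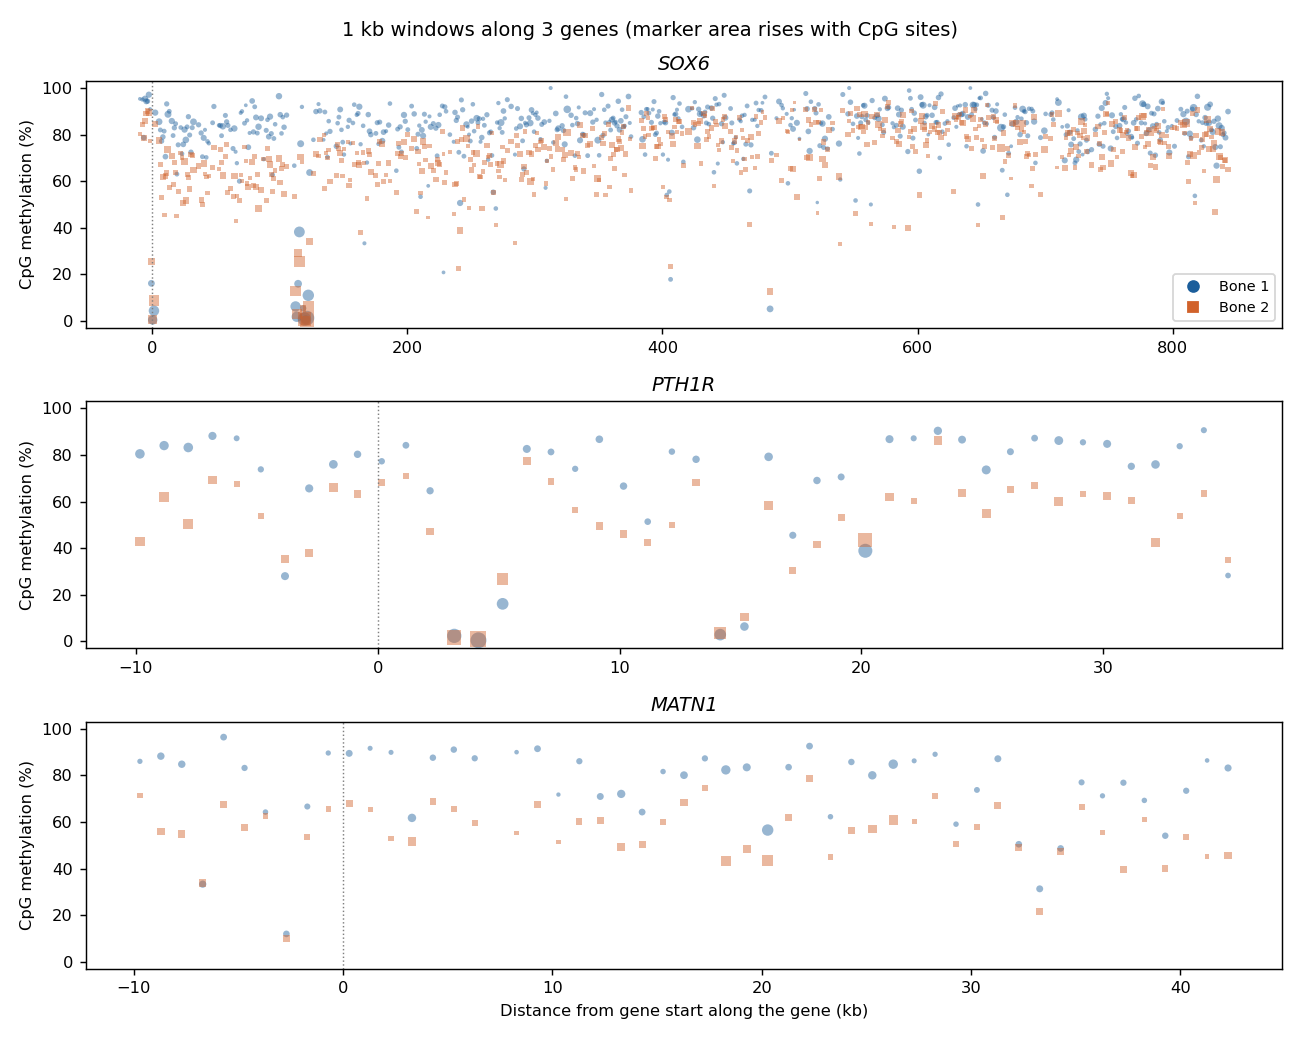
Methylation level (percent) of 1 kb windows along SOX6, PTH1R and MATN1 against distance from the gene start (kb), with bone 1 as circles, bone 2 as squares and marker area rising with the number of CpG sites. SOX6 dips at its start and from 112 to 123 kb, PTH1R dips at 2.67 to 4.67 kb and 13.7 to 15.7 kb, and no window inside MATN1 falls under 20% in both samples.

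Gene bodies, from start to end, had lower levels in bone 2 for all 9 genes, as did 81.9% of all bodies. The difference passed against an odds ratio of 1 for 7 of them, where 90.5% of all bodies did. Against the genome-wide odds ratio 8 passed, where 79.6% of all bodies did. Of these, SOX5, ACAN and MATN1 had an odds ratio above the genome-wide one. In the other 5 (SOX9, SOX6, COMP, IHH and PTH1R) the samples were closer together than that ratio by summed calls. The median over the 9 bodies was 75.5% in bone 1 and 58.2% in bone 2, beside 72.1% and 58.8% over all bodies. The set split in 2 by CpG density. In the 4 genes with over 30 CpG sites per kb (SOX9, COMP, IHH and PTH1R) bodies were at 21.1 to 46.2% in bone 1, whereas in the other 5 they were at 75.5 to 78.4%.

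Among the dense bodies, SOX9 was at 23.98% and 23.7% (adjusted p = 0.831, Fisher's exact test) and COMP at 34.1% and 33.9% (adjusted p = 0.879, Fisher's exact test). IHH was at 21.1% and 18.3% (adjusted p = 0.00830, exact test) and PTH1R at 46.2% and 42.8% (adjusted p = 1.43e-05, exact test). By summed calls these 4 lay within 3.38 percentage points between the samples. Over 75% of all bodies had a more negative difference than each of them. The median 1 kb window inside the gene was farther apart in PTH1R (73.8% in bone 1 and 51.6% in bone 2) and IHH (33.1% and 22.8%). In COMP it was at 39.4% and 34.1%, and in SOX9 at 11.6% and 10.7%. Depth in these bodies was lower in bone 2, at 4.43 to 6.84 calls per site against 16.3 to 25.0 in bone 1, and its part in the result was not tested.

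Of the bodies with fewer CpG sites per kb, ACAN was at 78.2% and 59.7%, MATN1 at 78.4% and 58.2%, SOX5 at 77.5% and 60.2%, and MATN3 at 75.8% and 61.0%. Their differences, from -14.8 to -20.3 percentage points, all passed against an odds ratio of 1, and that of MATN3 did not pass against the genome-wide one (adjusted p = 0.0820, exact test). SOX6 was at 75.5% and 69.6%, a difference of -5.91 percentage points that also passed, with an odds ratio of 1.35 that was below the genome-wide one (adjusted p = 5.54e-197, exact test). SOX5 and SOX6 are both long, with 6.83 and 6.43 CpG sites per kb. By summed calls they thus lay close together in bone 1 and farther apart in bone 2. By the median 1 kb window SOX6 was higher in both samples, at 85.0% and 74.0% beside 78.9% and 61.3% in SOX5. The difference between these genes was not tested.

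Along SOX6 the gap between the samples was not constant. In the first 200 kb the median window was at 82.0% in bone 1 and 63.3% in bone 2. From 200 to 400 kb it was at 85.0% and 71.7%. From 400 to 600 kb it was at 86.7% and 81.2%, and from 600 to 800 kb at 85.6% and 80.3%. The median gap went from -16.3 percentage points in the first stretch to -4.89 in the one from 600 to 800 kb and was -6.55 in the last, shorter stretch of 28 windows (85.4% and 78.7%), with levels in bone 1 that were close to each other along the gene. In SOX5 the median window of each 200 kb stretch was 77.2 to 81.0% in bone 1 and 60.1 to 62.6% in bone 2, with a median gap between -15.6 and -18.8 percentage points throughout. The stretches were chosen after the values were seen and the change along SOX6 was not tested.

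Other genes of cartilage were drawn from 2 lists, with the end of the gene that has more CpG sites taken as its start, except that the 9 genes kept theirs. Of 27 cartilage matrix genes, members included, 26 promoters were tested and 12 (46.2%) were under 20% in both samples. Lowest by the mean of both samples were CILP2, a protein of the cartilage intermediate layer, at 2.06% and 1.68%, COL2A1, the type II collagen, at 2.46% and 2.07%, and ACAN. Highest by that mean were CHADL, a relative of chondroadherin, at 92.4% and 88.1%, COL10A1, the collagen of hypertrophic cartilage, at 94.7% and 77.0% (not tested, with 19 calls in bone 1), and PRG4, the lubricant of joint surfaces, at 87.6% and 77.2%. The matrix genes therefore spanned nearly the whole range of promoter levels. Of the promoters tested, 17 (65.4%) differed against an odds ratio of 1, beside 63.8% of all promoters. Of those, 12 (70.6%) were lower in bone 2, beside 57.9% over all promoters. Against the genome-wide odds ratio 14 (53.8%) differed, beside 60.8% of all promoters. Besides MATN1, those that passed the latter with at least 20 percentage points between the samples were FMOD (83.7% and 55.1%), CHAD (55.9% and 27.9%) and COL9A3 (86.6% and 64.3%), a fibril-binding proteoglycan, a cell-binding matrix protein and a chain of collagen IX. The 2 ends held 15 and 20 CpG sites in FMOD and 24 and 19 in COL9A3, so their start side is uncertain. That holds also for CHADL (39 and 64), COL10A1 (8 and 3) and PRG4 (8 and 15). In PTH1R, with 39 and 23, the denser end was not the start named by the order of its neighbours.

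Of 28 regulators and growth plate signals, 27 promoters were tested and 20 (74.1%) were under 20% in both samples. By the mean of both samples ARID5B, a cofactor of SOX9, was lowest at 0.334% and 0.546%, followed by GLI1, an effector of hedgehog signalling, at 1.10% and 0.955%, and NKX3-2, a homeobox factor of early cartilage, at 1.91% and 1.56%. GDF5, a signal of joint formation, was highest at 88.7% and 80.1%, followed by MEF2C, a factor of hypertrophic chondrocytes, at 86.0% and 72.0%, and PTH1R. At its CpG-denser end PTH1R had a mean of 65.6%, below that of RUNX2 (73.5%). The 2 ends held 22 and 23 CpG sites in MEF2C, 10 and 15 in RUNX2, 48 and 38 in GDF5 and 40 and 28 in ZNF219. The start side is uncertain there. Against an odds ratio of 1, 15 promoters (55.6%) differed, 6 of them (40%) lower in bone 2, and against the genome-wide odds ratio 17 (63.0%) differed. The shares over all promoters were again 63.8%, 57.9% and 60.8%. With at least 20 percentage points these were ZNF219, a partner of SOX9, at 54.8% and 25.2%, and RUNX2, a factor of osteoblasts and maturing chondrocytes, at 87.0% and 60%. In counts, low promoters made up a larger share of the regulators than of the matrix genes, and the share over all promoters (51.1%) lay in between. That difference between the lists was not tested. The regulators also had the denser promoters, with a median of 105 CpG sites against 59 for the matrix genes and 69 for all promoters.

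Markers of the cell types that a bone sample can hold were also looked up, although promoter methylation is no measure of expression. Promoters under 20% in both samples were 5 of 7 chondrocyte markers, 3 of 7 tested osteoblast markers (SP7, PHOSPHO1 and COL1A1), 2 of 8 white blood cell markers (LCP1 and CORO1A), 0 of 4 red cell markers, 2 of 4 skeletal muscle markers (MYOD1 and ACTA1) and 0 of 4 fat cell markers, beside 51.1% of all promoters. CpG density moved with these counts, the median being 101 sites for the chondrocyte markers, 81 for muscle, 49 for osteoblast, 37 for white blood cell, 28.5 for red cell and 16 for fat cell markers, and its part in them was not tested. Of the chondrocyte markers, SOX9, ACAN, MATN1 and MATN3 are themselves among the 9 genes. Over the chondrocyte markers levels ran from 2.24 to 91.1% in bone 1 and from 2.07 to 67.4% in bone 2, and over the osteoblast markers from 2.04 to 87.3% and from 7.38 to 61.3%. The share of each cell type in the samples was not tested.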

How the data were processed

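WGBS libraries of 2 bone samples were analysed. After trimming the 150 bp reads, mapping with Bismark and deduplication, the authors deposited, per CpG cytosine, raw counts of calls that were methylated and calls that were not, without normalization. The submitters' processing notes name FastQC 0.11.5, Trim Galore 0.4.5, Bowtie2, Bismark 0.19.0 and the build ARS-UCD1.2, whereas the paper's methods name UMD3.1.1. The depth was 582241763 calls for bone 1 and 440334436 for bone 2. Lambda spike-in reads were not analysed here.

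The 2 strands of each CpG were summed, and a level is the methylated calls over all calls of a region, with a 95% Wilson interval. Gene ends came from a RefSeq table of ARS-UCD2.0, so none of its coordinates are printed. Its fit to the counts was checked by CpG density, which peaked within 500 bp of gene ends on 30 of 30 chromosomes (1.97 to 3.41 times the density farther off) and in the 5 Mb around each of the 9 genes. The table gives no strand. The start side of the 9 genes was set from the order of their neighbours, which named the CpG-denser end for 7 of them (not MATN1 and PTH1R), and for all other genes the denser end was taken, so the shares over all promoters lean towards CpG-dense ends.

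Promoters, bodies and 1 kb windows with at least 20 calls in each sample were compared by two-sided exact tests against an odds ratio of 1 and against the genome-wide one, with Benjamini-Hochberg adjustment over all of them and a threshold of 0.05. The tests were checked on simulated data in which calls were drawn independently, which cannot show how they behave where calls share reads. All 9 genes are named, and of each cartilage list the 3 lowest and 3 highest promoters and those past the genome-wide odds ratio by at least 20 percentage points. The 9 genes and the lists were chosen with earlier results of these data known. Alternatives were other region and window sizes, a minimum of 5 calls per site, at least 50 calls per region, no sites of extreme depth, unweighted means, another limit for low levels and each sample left out. Blocks of low windows were joined where they held at least 10 CpG sites, which left out 1 window of SOX5 that is given apart. Weighting by 250 bp bins, the denser end as start for all genes and both ends in the adjustment were added after the data were seen. The work was done in Python 3.11.15 with pandas 2.3.3, scipy 1.17.1, numpy 2.4.6, pyarrow 21.0.0, numba 0.67.0 and, for plots, matplotlib 3.10.9.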

Additional observations from a re-analysis of the deposited data

How the results depend on the processing

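The count of 6 low promoters was 4 to 7 under every alternative tried. The median promoter level of the 9 genes was 8.23% ± 4.61 as the mean of both samples. It was 3.15% with 500 bp before the start and 15.1% with 2000 bp. With bins weighted by CpG sites it was 11.8% ± 2.22 and higher in bone 1, and with unweighted site means 8.77% ± 0.652. When either sample was left out it was 4.96% to 11.5%, which left 6 to 7 low promoters. The count of 5 promoters that differed was 3 with 500 bp and 1 with at least 20 percentage points. Against the genome-wide odds ratio it was 2 with 500 bp, 8 with 2000 bp and 3 with sites of at least 5 calls. Bodies that differed were 1 instead of 7 with at least 20 percentage points. Their median level, 66.8%, was 58.2% to 75.5% with either sample left out. Low windows were 45 instead of 25 in windows of 500 bp, which are more numerous, and 25 to 27 with either sample left out. Windows that differed were 56 instead of 117 against the genome-wide odds ratio and 55 with at least 20 percentage points.

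Directions turned for single genes. With 2000 bp before the start the difference (bone 2 minus 1) was 3.13 percentage points for SOX9 and 2.48 for IHH. The log2 of the IHH odds ratio over the genome-wide one was then -1.60 (adjusted p = 5.80e-09, exact test). In both genes the added 1 kb took a larger share of the calls in bone 2. With sites of at least 5 calls, 28 of 171, IHH was at 0.211. With the denser end as start the same log2 value of MATN1 was -0.78 (adjusted p = 0.0384, exact test). With bins weighted by CpG sites SOX6 was at -3.78 and COMP at -3.14. These last values use the same calls with other weights, and for COMP the outermost bins rest on 8 and 9 calls in bone 1. The unweighted site mean kept the direction of COMP but not of SOX6. Differences that had not passed turned too. SOX5 went from 1.33 to -0.165 with 500 bp and to -0.521 with sites of at least 5 calls, and ACAN from 0.219 to -1.11 with weighted bins. The cause of these turns was not tested. A start set by transcripts was not run, since the gene table holds none. No paired analysis was possible because there is only 1 group. With about 3 to 27 calls per site in a promoter, single sites are coarse, and differences of a few percentage points at low promoters rest on few methylated calls.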

Other observations

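The other end of each gene, over a region of the same length, was methylated where the start was low. At this end SOX9 was at 85.2% in bone 1 and 63.4% in bone 2, COMP at 85.9% and 77.2%, and IHH, the signal of maturing chondrocytes, at 63.3% and 48.9%. ACAN, with 25 CpG sites there, was at 59.3% and 45.7%. Of the 9 genes, MATN1 alone was under 40% in both samples at this end, at 31.7% of 139 calls and 30.3% of 241 calls, which was below the level of its start region.

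Single CpG sites of the start regions could be followed where both samples had at least 5 calls. In SOX5 24 of 29 such sites had no methylated call in either sample, and in IHH 20 of 28. SOX6 had 16 of 31 without a methylated call and 2 that were over 50% in both samples. In MATN1 0 of 17 sites and in PTH1R 0 of 23 were under 20% in both, while 14 and 19 of them were over 50% in both. MATN3, with its intermediate level, had 25 of 78 sites without a methylated call, 47 under 20% in both samples and 4 over 50% in both.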
